A study of Mus musculus with 12 samples.

Results

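Hair cells of the cochlea turn sound into current through a mechanoelectrical transduction (MET) channel at the tips of their stereocilia. The channel is opened by the tip link, a filament whose lower part is protocadherin-15 and whose upper part is cadherin-23. Tmc1 and Tmc2 encode pore-forming subunits, Tmie and Cib2 encode accessory subunits, Lhfpl5 encodes a 4-pass membrane protein that joins protocadherin-15 to the channel, and Tomt encodes a membrane protein needed for the transport of the TMC proteins to the hair bundle. In the developing cochlea Tmc2 is expressed early and then declines, whereas Tmc1 persists in mature hair cells.

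The 8 genes Tmc1, Tmc2, Tmie, Lhfpl5, Cib2, Tomt, Pcdh15 and Cdh23 were chosen for these known roles, with earlier results of these data known. They were picked by symbol from the 55348 genes of the count files. The organ of Corti of mice at P21 (postnatal day 21) was profiled by RNA sequencing, with 3 libraries for each of 4 genotypes, to learn which transcripts change without the clarins, membrane proteins encoded by Clrn1 and Clrn2. The organ of Corti was dissected free of the stria vascularis and the modiolus. Clrn1-/- mice carry a constitutive deletion of Clrn1 exon 4 made with PGK-cre, Clrn2-/- mice are homozygous for the clarinet allele, a nonsense mutation of Clrn2, and Clrn1-/-Clrn2-/- mice came from crossing both lines. Wild-type animals were bred separately rather than as littermates, and breeding and genotype therefore cannot be told apart in any comparison with wild-type. The same 3 wild-type libraries served every such comparison. The strain of the mice was not given in the sources used here. The methods state that n is the number of mice and that the mice of each group came from multiple independent litters. They do not say which animals or litters each library held, so p-values measure the spread between these libraries. Clrn1 transcripts were lower in Clrn1-/- (log2 fold change -3.19, edgeR adjusted p = 4.97e-11) and Clrn1-/-Clrn2-/- mice (-3.47, edgeR adjusted p = 4.44e-11). Clrn2 transcripts were lower in Clrn2-/- (-1.15, edgeR adjusted p = 0.00154) and Clrn1-/-Clrn2-/- mice (-1.33, edgeR adjusted p = 0.000127) and also in Clrn1-/- mice (-1.57, edgeR adjusted p = 7.41e-05).

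Libraries held 30008679 to 41049302 counts on genes, of which the 8 genes held 0.0176% to 0.0206%, or 5582 to 7958 counts. All 8 genes passed the filter on low counts and were among the 19052 tested, but Tmc2 passed through its counts in Clrn1-/- libraries alone. Levels are given as CPM (a read count as a share of the library, scaled by TMM) for 1 gene across libraries and as FPKM (CPM per kilobase of exon) between genes. A gene was called at an edgeR adjusted p of at most 0.05 with a change of at least 1.5-fold. Separation of 3 against 3 libraries without overlap was common and does not by itself set a gene apart. Of all genes tested, 40.2% were so separated between Clrn1-/- and wild-type, and 29.0% between Clrn2-/- and wild-type. The share was 48.2% for Clrn1-/-Clrn2-/- against wild-type, and 34.6% to 45.9% between mutants. All 14 hair cell markers that were listed were detected, among them Ocm (mean of 67.1 CPM in wild-type), Slc26a5 (17.2 CPM), Otof (99.5 CPM) and Slc17a8 (29.3 CPM). Skeletal muscle markers summed to at most 3.17 CPM in every library. In bulk tissue, fewer cells of a type and less RNA per cell cannot be told apart.

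Start-site sequences of Tmc1, Pcdh15 and Cdh23 are shown because these 3 genes had the clearest changes, with 250 bases before and 50 after the start of a RefSeq transcript on GRCm38.p6. Of the 8 genes, 7 had such a window. The window of Tmc1 is chr19:20954153-20954452 on the minus strand, that of Pcdh15 chr10:73821617-73821916 on the plus strand, and that of Cdh23 chr10:60696441-60696740 on the minus strand. Capitals mark matches to CAGCTG and CAGATG, E-boxes that basic helix-loop-helix factors can bind, and to TATAAA, searched on both strands. No match overlapped another.
Tmc1: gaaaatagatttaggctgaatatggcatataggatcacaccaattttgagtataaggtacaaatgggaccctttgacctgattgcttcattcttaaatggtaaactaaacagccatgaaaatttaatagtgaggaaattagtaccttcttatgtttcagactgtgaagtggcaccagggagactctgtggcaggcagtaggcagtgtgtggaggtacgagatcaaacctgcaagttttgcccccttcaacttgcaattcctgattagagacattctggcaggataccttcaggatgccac
Pcdh15: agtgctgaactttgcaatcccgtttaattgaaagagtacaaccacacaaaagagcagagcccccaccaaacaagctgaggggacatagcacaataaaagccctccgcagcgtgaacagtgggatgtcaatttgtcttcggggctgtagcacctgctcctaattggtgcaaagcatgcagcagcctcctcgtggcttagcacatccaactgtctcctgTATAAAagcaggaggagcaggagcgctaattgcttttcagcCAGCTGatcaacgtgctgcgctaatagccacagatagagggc
Cdh23: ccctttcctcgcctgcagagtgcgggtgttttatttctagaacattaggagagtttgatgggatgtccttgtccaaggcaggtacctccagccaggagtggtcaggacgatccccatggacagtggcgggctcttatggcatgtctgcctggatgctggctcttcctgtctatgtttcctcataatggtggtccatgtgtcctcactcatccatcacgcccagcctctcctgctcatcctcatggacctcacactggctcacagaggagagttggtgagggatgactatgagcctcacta
The Pcdh15 window held TATAAA at position -33 and CAGCTG at position 9, counted from the start site. This start site is internal, far downstream of the annotated start of the gene at chr10:73099342. The windows of Tmc1 and Cdh23 held no match. CAGCTG was also present in windows of Tmie, Lhfpl5 and Tomt, and in 16.3% of all 32851 windows, against 17.2% for CAGATG and 13.6% for TATAAA. GC content was 42% for Tmc1, 50.7% for Pcdh15 and 54% for Cdh23, beside a median of 52.7% over all windows, and was 71.3% to 73.7% for Cib2 and Tmie.

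In wild-type organ of Corti the 8 genes spanned a wide range of level per length. Cib2, the calcium- and integrin-binding subunit, was by far the highest at 65.1 ± 4.93 FPKM (SD, n = 3). Lhfpl5 followed at 7.80 ± 1.36 FPKM and Tomt at 3.22 ± 0.244 FPKM, with no overlap between libraries of these 3 genes. Tmie at 2.29 ± 0.152 FPKM and Cdh23 at 2.01 ± 0.112 FPKM overlapped and so were not ordered. Tmc1 stood below both at 1.72 ± 0.178 FPKM, and Pcdh15 at 0.489 ± 0.0235 FPKM. Tmc2 was last at 0.0256 ± 0.0174 FPKM. The length of Pcdh15 (23773 exon bases, from chr10:73099342-74649737 on the plus strand) is the union of the exons of all its transcripts, which lowers its FPKM beside that of a gene with fewer isoforms.

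Tmc1 was higher in every mutant, Cdh23 was lowest in Clrn1-/- mice and below wild-type in every mutant, and Pcdh15 was highest in Clrn1-/-Clrn2-/- mice. Lhfpl5 and Cib2 moved little.

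**Figure D1:**
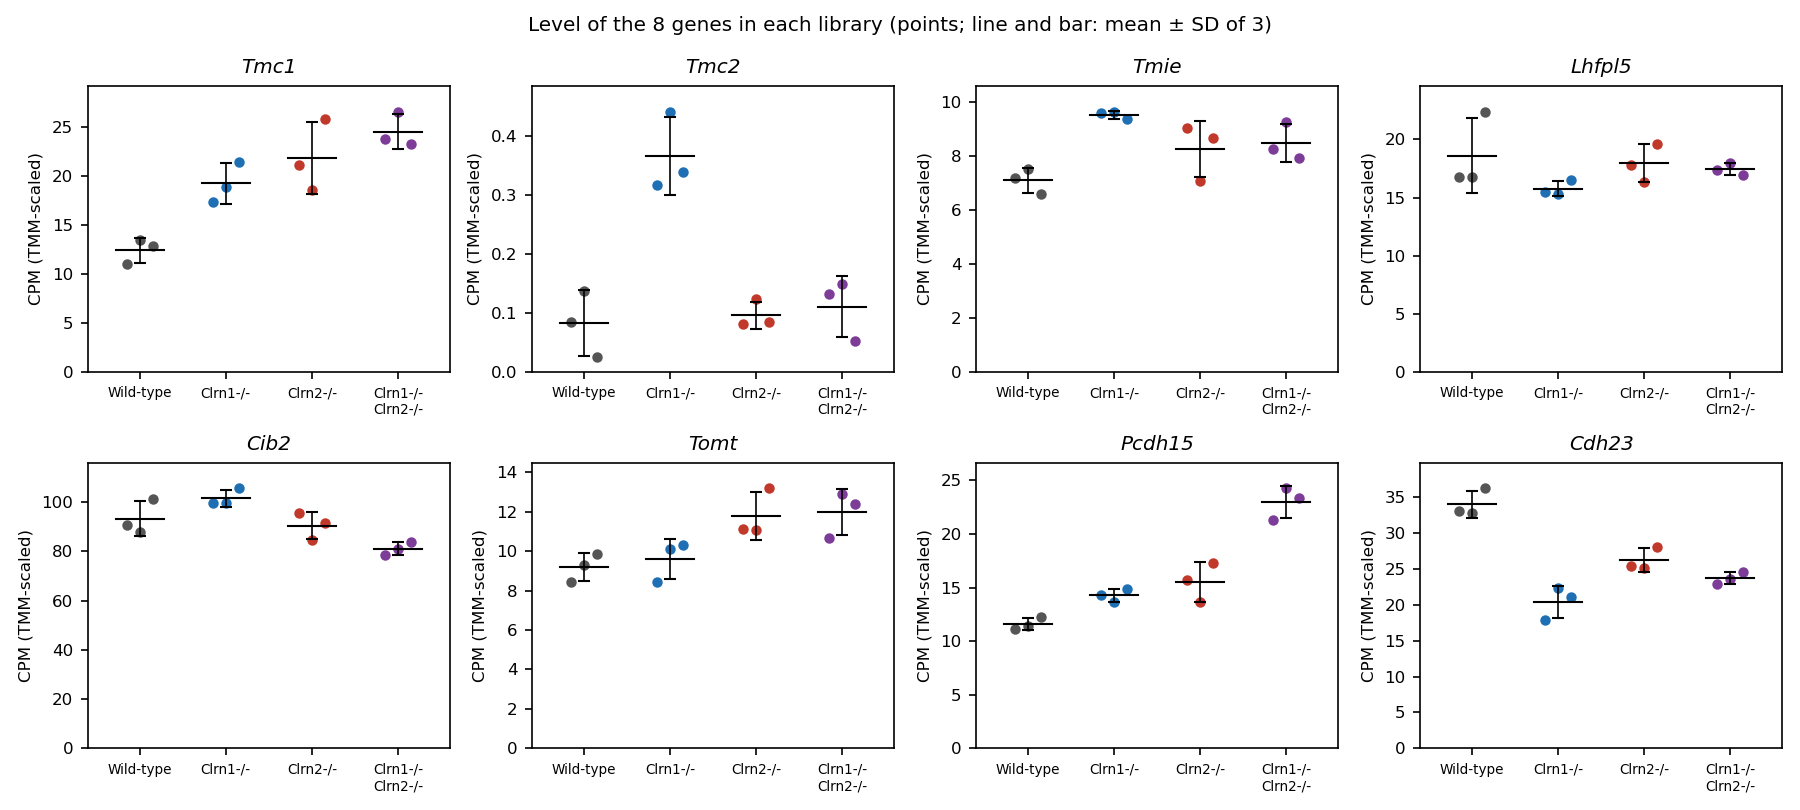
Level of each of the 8 genes in CPM (y axis, from 0) in the 12 libraries by genotype (x axis); points are libraries, the line and bar the mean ± SD of 3. Every mutant library was above wild-type for Tmc1 and Pcdh15 and below it for Cdh23, and Tmc2 stayed below 0.44 CPM in all libraries.

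Tmc1, the pore-forming subunit of mature hair cells (chr19:20783458-20954202, minus strand), rose in all 3 mutants. Wild-type libraries had 11.0, 13.4 and 12.8 CPM. Clrn1-/- libraries had 17.3, 18.9 and 21.5 CPM, Clrn2-/- libraries 21.1, 18.5 and 25.8 CPM, and Clrn1-/-Clrn2-/- libraries 23.8, 26.5 and 23.2 CPM. No mutant library reached down to the wild-type range, while the 3 mutants overlapped in part. Tmc1 was 1.55-fold higher in Clrn1-/- mice (log2 fold change 0.63 ± 0.11 SE, edgeR adjusted p = 0.000739), 1.76-fold in Clrn2-/- mice (0.81 ± 0.11, edgeR adjusted p = 0.000197) and 1.97-fold in Clrn1-/-Clrn2-/- mice (0.98 ± 0.11, edgeR adjusted p = 5.3e-06). The call in Clrn1-/- mice was close to the 1.5-fold minimum and was lost without wild-type replicate 1 (log2 fold change 0.56) or Clrn1-/- replicate 3 (0.55). The double mutant was above Clrn1-/- without overlap (log2 difference 0.35, edgeR adjusted p = 0.025, under the fold minimum), while it and Clrn2-/- overlapped (0.17, edgeR adjusted p = 0.286). The interaction, the double mutant's change minus the sum of both single changes, was -0.47 (edgeR adjusted p = 0.0547). Every interaction includes the separately bred wild-type libraries, so breeding and genotype cannot be told apart in it either. The study itself named Tmc1 and Pcdh15 as changed from these libraries, so that their direction here is no independent evidence. By quantitative real-time PCR (qRT-PCR) the study also reported both as significantly higher in Clrn1-/-Clrn2-/- mice than in wild-type.

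Tmc2, the pore-forming subunit of immature cochlear hair cells (chr2:130195194-130264445, plus strand), was barely detected. Its counts were 3, 5 and 1 in wild-type, 10, 17 and 13 in Clrn1-/-, 3, 4 and 3 in Clrn2-/-, and 4, 5 and 2 in Clrn1-/-Clrn2-/- libraries. Clrn1-/- libraries were above all others, and the other 3 genotypes overlapped. Tmc2 was called higher in Clrn1-/- mice (log2 fold change 2.14, 95% interval 1.12 to 3.16, edgeR adjusted p = 0.00378), on 40 counts against 9. Since Tmc2 entered the test through these libraries, a difference was in part built in, and intervals cover counting error and library spread only. In Clrn2-/- and Clrn1-/-Clrn2-/- mice the log2 fold changes were 0.22 and 0.39 with intervals of -1.11 to 1.56 and -0.91 to 1.70, so that changes of this size were not detectable at this depth. Vestibular markers (Oc90, Otop1 and Anxa4) summed to 56.7 to 78.5 CPM in Clrn1-/- libraries against 49.3 to 54.3 CPM in wild-type, but also to 63.0 to 66.7 CPM in the double mutant, where Tmc2 was not called. Their part in the Tmc2 counts was not tested.

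Tmie, an accessory subunit (chr9:110865711-110880113, minus strand), had 7.19, 7.51 and 6.58 CPM in wild-type and 9.59, 9.63 and 9.35 CPM in Clrn1-/- libraries. Clrn1-/- libraries were all higher, by a log2 difference of 0.43 ± 0.10 (edgeR adjusted p = 0.00477), under the 1.5-fold minimum. In Clrn2-/- mice (7.07 to 9.04 CPM) the libraries overlapped with wild-type (0.22, edgeR adjusted p = 0.161), and in Clrn1-/-Clrn2-/- mice (7.91 to 9.24 CPM) they did not (0.26, edgeR adjusted p = 0.0562).

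Lhfpl5, which couples the tip link to the channel (chr17:28575641-28585679, plus strand), passed no test in any comparison. It had 16.7, 16.7 and 22.4 CPM in wild-type, where the third library stood apart upward. Against it, the log2 differences were -0.24 in Clrn1-/- (15.3 to 16.5 CPM, edgeR adjusted p = 0.0875), -0.05 in Clrn2-/- (16.4 to 19.6 CPM, edgeR adjusted p = 0.776) and -0.10 in the double mutant (17.0 to 18.0 CPM, edgeR adjusted p = 0.496). Without that wild-type library the latter 2 differences turned to 0.10 and 0.05. The 95% intervals against wild-type reached at most -0.45 downward and 0.16 upward.

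Cib2 (chr9:54544794-54560218, minus strand) had 90.7, 87.9 and 101 CPM in wild-type, 99.8, 99.5 and 106 CPM in Clrn1-/-, 95.4, 84.8 and 91.4 CPM in Clrn2-/-, and 78.5, 81.0 and 83.7 CPM in Clrn1-/-Clrn2-/- libraries. Double-mutant libraries were below those of every other genotype. The log2 difference was -0.20 ± 0.06 against wild-type (edgeR adjusted p = 0.00958) and -0.33 ± 0.06 against Clrn1-/- (edgeR adjusted p = 0.000341), each under the fold minimum. Its interaction of -0.28 had an edgeR adjusted p of 0.0222.

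Tomt (chr7:101898370-101906359, minus strand) had 8.46, 9.29 and 9.84 CPM in wild-type, 8.45, 10.1 and 10.3 CPM in Clrn1-/-, 11.1, 11.0 and 13.2 CPM in Clrn2-/-, and 10.7, 12.9 and 12.4 CPM in Clrn1-/-Clrn2-/- libraries. Both genotypes without clarin-2 were above wild-type without overlap, by log2 differences of 0.36 ± 0.10 (edgeR adjusted p = 0.03) and 0.38 ± 0.10 (edgeR adjusted p = 0.00789), under the fold minimum. Clrn1-/- mice overlapped with wild-type (0.07, edgeR adjusted p = 0.683). Of the exon bases of Tomt, 69.3% (1981 bases) lie in exons of Anapc15 on the opposite strand, where 450 to 651 counts per library fell. These values therefore rest on the strand of the reads. For Tmc1, which shares no exon base with a gene of the opposite strand, 0 to 5 counts per library fell on that strand.

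Pcdh15, the lower part of the tip link, was called higher in Clrn1-/-Clrn2-/- mice. Wild-type libraries had 11.2, 11.4 and 12.2 CPM. Clrn1-/- libraries had 14.3, 13.7 and 14.9 CPM, Clrn2-/- libraries 15.7, 13.6 and 17.3 CPM, and Clrn1-/-Clrn2-/- libraries 21.3, 24.3 and 23.4 CPM. Double-mutant libraries were above all others, and both single mutants lay between them and wild-type without overlap with either. Pcdh15 was 1.98-fold higher in the double mutant than in wild-type (log2 fold change 0.98 ± 0.08, edgeR adjusted p = 2.33e-07), and 1.61-fold higher than in Clrn1-/- mice (0.69 ± 0.08, edgeR adjusted p = 1.35e-05). Against Clrn2-/- mice it was 1.48-fold (0.56 ± 0.08, edgeR adjusted p = 0.000138), under the fold minimum, which it passed without Clrn2-/- replicate 3 (0.63) or Clrn1-/-Clrn2-/- replicate 1 (0.60). Clrn1-/- mice differed from wild-type by 0.30 (edgeR adjusted p = 0.0179) and Clrn2-/- mice by 0.42 (edgeR adjusted p = 0.00358), also under it. The interaction was 0.27 (edgeR adjusted p = 0.144, interval 0.01 to 0.52), so that the double mutant's change was not shown to differ from the sum of both single changes. Counts per gene do not separate the isoforms of Pcdh15.

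Cdh23, the upper part of the tip link (chr10:60302748-60696490, minus strand), went the other way. Wild-type libraries had 33.0, 32.8 and 36.2 CPM. Clrn1-/- libraries had 17.8, 22.3 and 21.1 CPM, Clrn2-/- libraries 25.4, 25.2 and 28.1 CPM, and Clrn1-/-Clrn2-/- libraries 22.9, 23.7 and 24.5 CPM. Every mutant library was below every wild-type library, and the 3 mutants were ordered without overlap, with Clrn1-/- lowest, the double mutant between, and Clrn2-/- nearest to wild-type. Cdh23 fell by 0.74 ± 0.08 on the log2 scale in Clrn1-/- mice (1.66-fold lower, edgeR adjusted p = 4.16e-06), its only call against wild-type. The log2 differences were -0.38 ± 0.07 in Clrn2-/- mice (edgeR adjusted p = 0.00299) and -0.52 ± 0.07 in Clrn1-/-Clrn2-/- mice (edgeR adjusted p = 4.48e-05), under the fold minimum. Clrn1-/- and Clrn2-/- mice differed by -0.36 (edgeR adjusted p = 0.00395), while the double mutant and Clrn1-/- differed by 0.21 (edgeR adjusted p = 0.0461) and the double mutant and Clrn2-/- by -0.15 (edgeR adjusted p = 0.172). The interaction was 0.59 ± 0.11 with an edgeR adjusted p of 0.00142, barely over the fold minimum: the fall in the double mutant was smaller than the sum of both single differences. That call was lost with DESeq2 (0.58), under other scalings and without any 1 of 6 libraries (0.49 to 0.57), each time by the size of the change and not by its adjusted p.

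**Figure D2:**
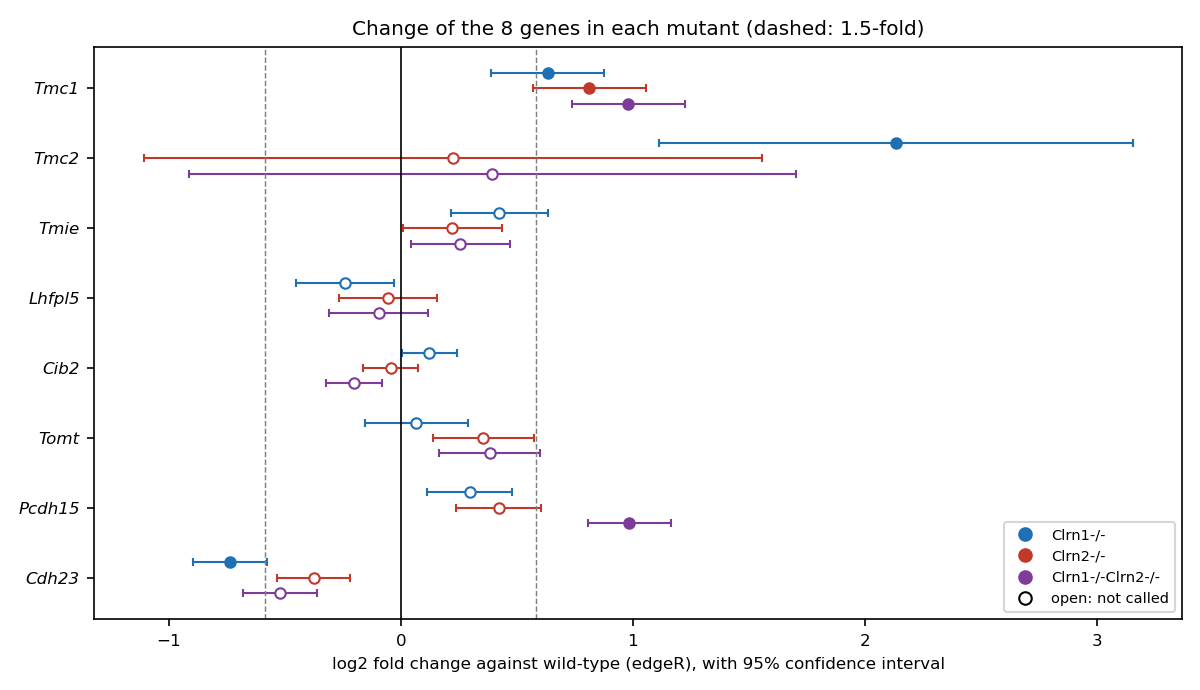
Log2 fold change against wild-type (x axis) of each of the 8 genes (y axis) in the 3 mutants, with 95% confidence intervals; filled points were called, open points were not, and dashed lines mark 1.5-fold. Tmc1 is called in all 3 mutants, Pcdh15 in the double mutant, and Cdh23 and Tmc2 in Clrn1-/- mice.

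By comparison, Tmc1 and Tmc2 were called higher and Cdh23 lower in Clrn1-/- mice, 3 of the 8, beside 7.22% of all genes tested. In Clrn2-/- mice 1 was called (Tmc1), beside 2.66%, and in Clrn1-/-Clrn2-/- mice 2 (Tmc1 and Pcdh15), beside 9.90%. Between Clrn1-/- and Clrn2-/- mice 1 was called (Tmc2, higher in Clrn1-/-), beside 4.73%. Between Clrn1-/-Clrn2-/- and Clrn1-/- mice 2 were called (Pcdh15 higher, Tmc2 lower), beside 7.23%. Both Tmc2 calls between mutants were lost with DESeq2 (adjusted p of 0.0506 and 0.0547). Between Clrn1-/-Clrn2-/- and Clrn2-/- mice none was called by edgeR, beside 5.10%, although 2 passed on the adjusted p alone. The interaction was called for Cdh23 alone, beside 5.50%. By the adjusted p without a fold minimum, edgeR put 5 of the 8 past the threshold in Clrn1-/- mice (26.9% of all genes), 4 in Clrn2-/- mice (14.2%) and 5 in Clrn1-/-Clrn2-/- mice (37.0%). Likewise 3 passed between the single mutants (18.5%), 6 between the double mutant and Clrn1-/- (30.4%), 2 between the double mutant and Clrn2-/- (27.6%) and 2 for the interaction (17.4%). The median log2 fold changes of the 8 against wild-type were 0.21, 0.22 and 0.32 in Clrn1-/-, Clrn2-/- and Clrn1-/-Clrn2-/- mice, and that of all genes was near 0 in each (-0.003, -0.002 and 0.001). With 8 genes, of which Tmc2 entered the test through Clrn1-/- libraries alone, these counts describe the genes and show nothing particular to them.

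Ratios between genes of the same library do not depend on library scaling. The ratio of Pcdh15 to Cdh23 in FPKM, lower to upper tip link, was 0.243 ± 0.00384 (SD, n = 3) in wild-type. It was 0.504 ± 0.0664 in Clrn1-/-, 0.422 ± 0.0316 in Clrn2-/- and 0.691 ± 0.0348 in double-mutant mice. All mutant libraries were above all wild-type libraries, and the double mutant was above both single mutants. The ratio was thus 2.06-fold, 1.73-fold and 2.84-fold that of wild-type (log2 differences of 1.04, 0.79 and 1.51, each with an exact two-sided permutation p of 0.1, the smallest that 3 against 3 libraries allow). Over all 90 comparisons of ratios computed, the adjusted value of that smallest exact permutation p was 0.141, so no ratio could pass 0.05. Tmc1 to Cdh23 was 0.859 ± 0.0932 in wild-type and was above 1 in every mutant library, with means of 2.23 ± 0.207 in Clrn1-/-, 1.95 ± 0.214 in Clrn2-/- and 2.44 ± 0.204 in the double mutant. Tmc1 to Pcdh15 differed from wild-type by 0.33 in Clrn1-/- and 0.39 in Clrn2-/- mice on the log2 scale, without overlap, and by 0.002 in Clrn1-/-Clrn2-/- mice, where libraries overlapped.

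**Figure D3:**
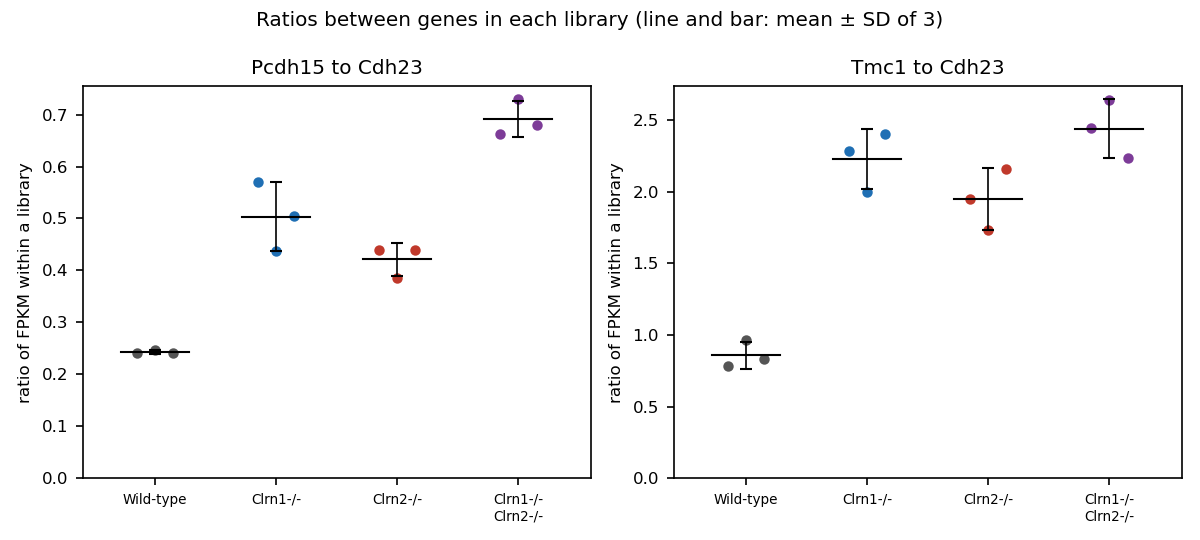
Ratio of the FPKM of Pcdh15 to that of Cdh23 (left) and of Tmc1 to that of Cdh23 (right) in each library (y axes from 0) by genotype; points are libraries, the line and bar the mean ± SD of 3. Mean ratios of Pcdh15 to Cdh23 run from 0.243 in wild-type to 0.691 in Clrn1-/-Clrn2-/- mice, and no mutant library overlaps with wild-type in either panel.

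Hair cells are a minority of the tissue, so the 8 genes were also set against hair cell markers. Of 6 outer hair cell markers, 3 (Ocm, Chrna9 and Strc) were called higher in Clrn2-/- mice, beside 1.24% of all genes called higher, and likewise in the double mutant, beside 5.88%. The medians of the 6 log2 fold changes were 0.61 and 0.60. By qRT-PCR, the study found no significant difference of Strc between the double mutant and wild-type. Chrna10, the partner subunit of Chrna9 in the nicotinic receptor, had log2 differences of the opposite sign, at -0.17 in Clrn2-/- (edgeR adjusted p = 0.4) and -0.47 in the double mutant (edgeR adjusted p = 0.00667, under the fold minimum). In Clrn1-/- mice edgeR called none higher (2 passed on the adjusted p alone) and Chrna10 was called lower (-0.77, edgeR adjusted p = 0.000281), with a median of 0.24. Their summed level was 129 to 151 CPM in wild-type, 153 to 196 CPM in Clrn1-/-, 180 to 245 CPM in Clrn2-/- and 215 to 233 CPM in Clrn1-/-Clrn2-/- libraries. Of 2 inner hair cell markers, Slc17a8 was lower in Clrn1-/- mice (-0.89, edgeR adjusted p = 4.74e-06), and Otof was not called in any mutant. Of 6 markers of both types, Gfi1 was lower in Clrn1-/- (-0.92, edgeR adjusted p = 0.000641) and Clrn1-/-Clrn2-/- mice (-0.69, edgeR adjusted p = 0.00304), and the others were not called.

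Relative to the mean log2 level of all 14 hair cell markers, Tmc1 was higher than in wild-type by 0.73 in Clrn1-/-, 0.51 in Clrn2-/- and 0.68 in the double mutant, without overlap (exact permutation p = 0.1 for each). Cdh23 was lower by the same measure, with differences of -0.65, -0.67 and -0.83 (exact permutation p = 0.1 for each). On this scale Clrn1-/- and Clrn2-/- libraries overlapped for Cdh23 (difference 0.02, exact permutation p = 0.8). Pcdh15 differed by 0.39 in Clrn1-/- and 0.68 in Clrn1-/-Clrn2-/- mice, and by 0.12 with overlap in Clrn2-/- mice. Lhfpl5 differed by -0.13 with overlap, -0.34 and -0.39, and Cib2 by 0.22, -0.34 and -0.51. Tmie differed by 0.52 without overlap in Clrn1-/- mice, and by -0.08 and -0.05 with overlap in Clrn2-/- and Clrn1-/-Clrn2-/- mice. Tomt, with differences of 0.16, 0.06 and 0.07, overlapped with wild-type in both genotypes without clarin-2. Relative to the 6 outer hair cell markers alone, Tmc1 was higher by 0.49, 0.34 and 0.47, and Cdh23 was lower, at -0.88, -0.84 and -1.04, all without overlap. Pcdh15 differed by 0.16, -0.05 and 0.47 on that scale. The part of hair cell number in any of these changes was not tested.

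**Figure D4:**
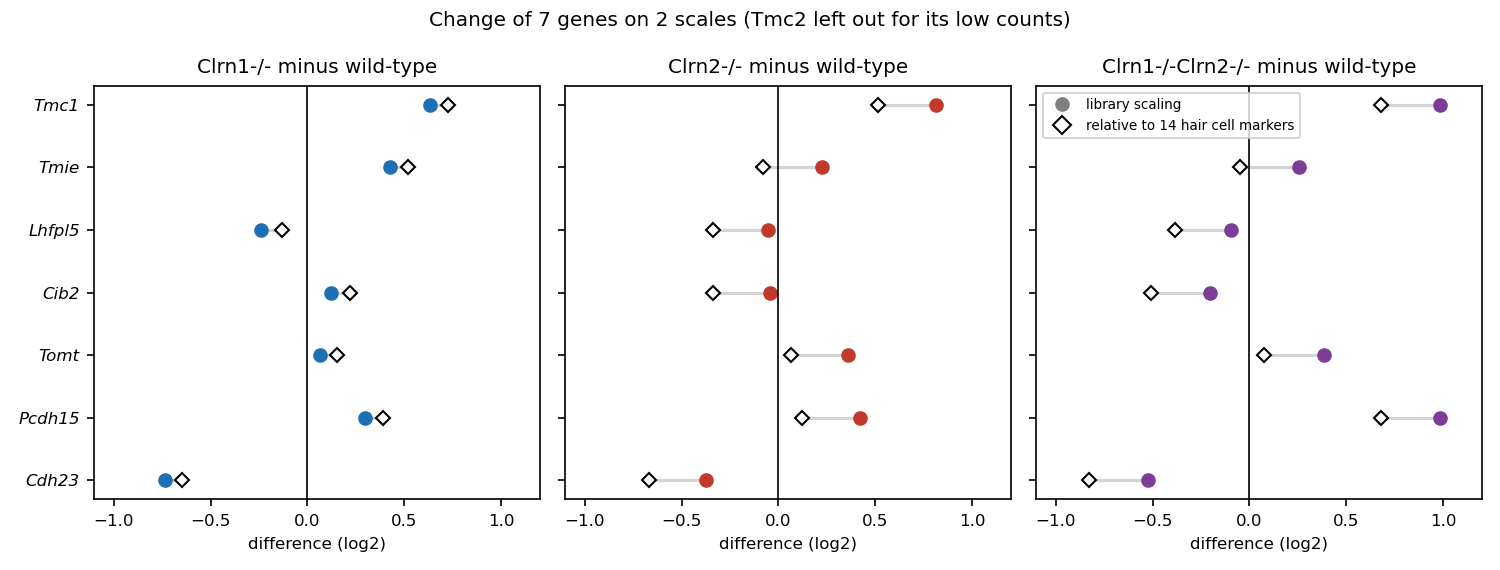
Difference from wild-type (x axis, log2) of 7 of the genes (y axis) in each mutant, on the library scale of edgeR (filled circles) and relative to the mean of 14 hair cell markers (open diamonds). Tmc1 lies above 0 and Cdh23 below 0 on both scales in all 3 mutants, and Tmie changes sign in Clrn2-/- and Clrn1-/-Clrn2-/- mice.

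Markers of other cell types also differed between the genotypes. For comparison, 3.70%, 1.42% and 4.02% of all genes were called lower in Clrn1-/-, Clrn2-/- and Clrn1-/-Clrn2-/- mice, and 3.52%, 1.24% and 5.88% higher. Neuronal markers summed to 7894 to 8707 CPM in wild-type, 7109 to 7539 CPM in Clrn1-/-, 6900 to 7771 CPM in Clrn2-/- and 5371 to 5421 CPM in Clrn1-/-Clrn2-/- libraries, and 2 of 6 were called lower in the double mutant. Supporting cell markers summed to 1504 to 1608 CPM in wild-type and 1381 to 1494 CPM in Clrn1-/- libraries. They summed to 1392 to 1586 CPM in Clrn2-/- and 1963 to 2043 CPM in Clrn1-/-Clrn2-/- libraries. In the double mutant 3 of 8 were called higher and 1 lower. All 3 red blood cell markers were called lower in both single mutants and 1 of 3 in the double mutant, with sums of 637 to 1048 CPM in wild-type and 258 to 652 CPM over the mutants. Of 5 fibroblast markers, Otos and Coch were called lower in Clrn1-/- (-1.35 and -0.61) and Clrn2-/- mice (-1.13 and -0.64), and Otos in the double mutant (-0.77). Of 4 markers of the stria vascularis, which the dissection was meant to leave out, Esrrb (-0.95) and Kcne1 (-1.65, with overlap) were called lower in the double mutant, and the median of the 4 was -0.77. Their summed level was 261 to 375 CPM in wild-type, 221 to 277 CPM in Clrn1-/-, 284 to 332 CPM in Clrn2-/- and 264 to 312 CPM in Clrn1-/-Clrn2-/- libraries, and each mutant overlapped with wild-type. The macrophage marker Adgre1 was called higher in Clrn1-/- mice (0.72) and in the double mutant (0.88), 1 of 3 markers. The vestibular marker Oc90 (1.66) and the bone marker Ibsp (1.42), each 1 of 3, were called higher in the double mutant, and Mylpf, 1 of 5 muscle markers, was called lower (edgeR adjusted p = 0.0225). None of 5 Schwann cell markers was called by edgeR in any mutant, although 2, 0 and 3 passed on the adjusted p alone. The part of these shifts in the changes of the 8 genes was not tested.

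The other genes of the MET machinery and the relatives of the 8 genes were described in the same way. Of 22 such genes, 20 were tested, and Tmc5 and Cib4 had too few counts. By edgeR, 0 of the 20 were called in Clrn1-/- mice, beside 7.22% of all genes, 1 in Clrn2-/- mice, beside 2.66%, and 2 in the double mutant, beside 9.90%. On the adjusted p alone, 3, 4 and 9 passed, beside 26.9%, 14.2% and 37.0%. Their median log2 fold changes were 0.04, -0.06 and 0.08. In Clrn2-/- mice the gene called was Loxhd1, which encodes a stereociliary protein, with a change of 0.59 ± 0.12 on the log2 scale (edgeR adjusted p = 0.00316), from 11.4 ± 1.91 to 17.1 ± 2.54 CPM. That call sat at the fold minimum and was lost without wild-type replicate 1, wild-type replicate 3 or Clrn2-/- replicate 3. In Clrn1-/-Clrn2-/- mice the genes called were Ush1c and Cib3. Ush1c, which encodes harmonin, the scaffold that anchors cadherin-23 in the stereocilium, rose by 0.80 ± 0.09 on the log2 scale (edgeR adjusted p = 2.7e-06), from 39.2 ± 1.83 to 68.1 ± 0.882 CPM. It was also higher than in Clrn1-/- mice (0.65, edgeR adjusted p = 3.17e-05). By qRT-PCR, however, the study found no significant difference of Ush1c between Clrn1-/-Clrn2-/- and wild-type mice. Cib3, a relative of Cib2 listed here with the MET machinery, was called lower (-2.73 ± 0.99, edgeR adjusted p = 0.0406) on 9 counts against 67, but its wild-type libraries ranged from 0.169 to 1.48 CPM and overlapped with the double mutant (0.0258 to 0.197 CPM). It was not called by limma-voom, with only these genotypes in the fit, with the replicate block, or without Clrn1-/-Clrn2-/- replicate 2 or 3. Myo7a, the myosin of the upper tip-link complex, had log2 differences of 0.04, -0.08 and 0.13, none past the test. The 11 tested genes listed as relatives (TMC, LHFPL and CIB family genes other than Cib3) had no edgeR call against wild-type, with medians of 0.04, -0.02 and -0.10, although 2, 1 and 4 of them passed on the adjusted p alone.

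**Figure D5:**
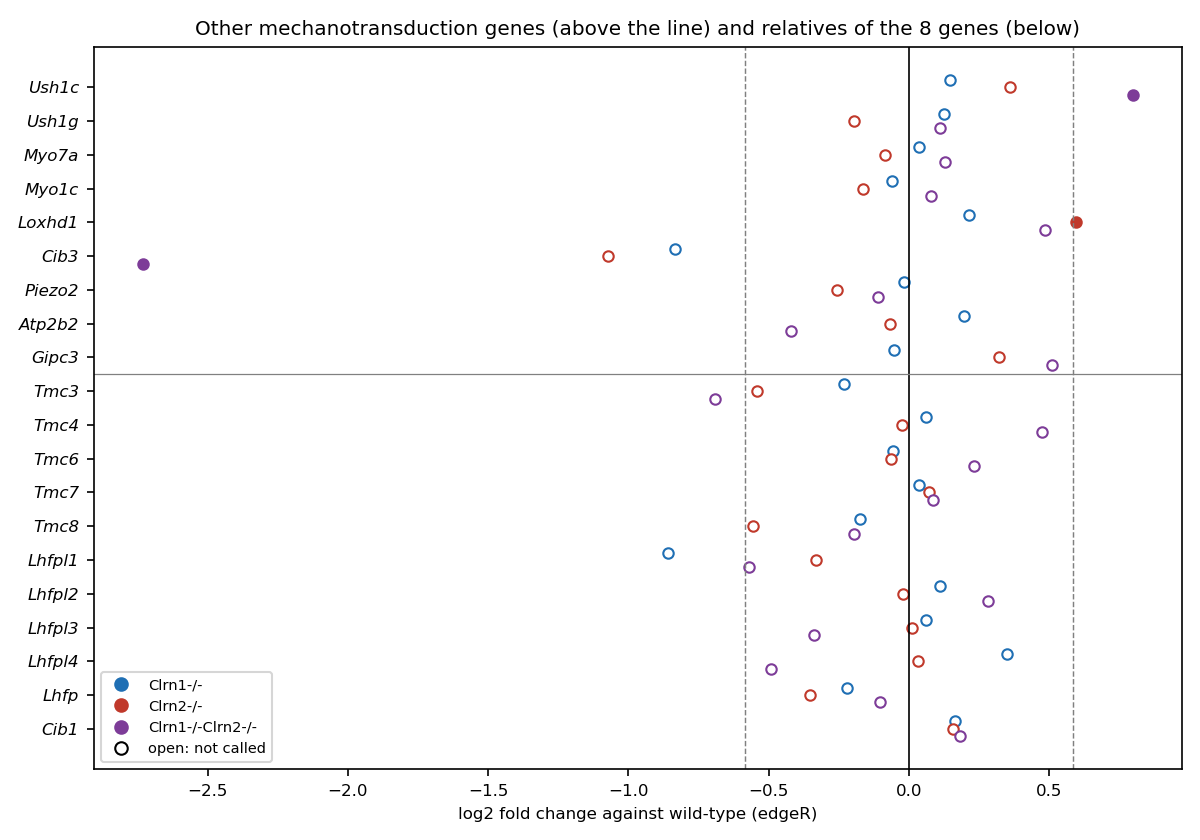
Log2 fold change against wild-type (x axis) of 20 other genes (y axis), 9 of the MET machinery above the line and 11 relatives of the 8 genes below it; filled points were called and dashed lines mark 1.5-fold. The filled points are Ush1c and Cib3 in Clrn1-/-Clrn2-/- mice and Loxhd1 in Clrn2-/- mice.

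Across all 12 libraries, the genes with the most similar profile were taken by the smallest root mean square difference of centred log2 CPM, from 14892 genes. For Tmc1, whose own SD was 0.40 on that scale, they were Chrna9 (difference 0.08), Tunar (0.12) and Ocm (0.12). Chrna9 and Ocm, both listed as outer hair cell markers, encode a nicotinic receptor subunit and the calcium buffer oncomodulin. For Pcdh15 (SD 0.37) they were Heyl, Plpp2 and Ap1m2, each at 0.07. For Cdh23 (SD 0.28) they were Lmo7 (0.09), Fchsd1 (0.11) and Ano4 (0.11). For Tmc2 (SD 0.75) the nearest were Folh1 (0.26), Pcdh11x (0.30) and Tifa (0.33), which had means of 7.42, 7.88 and 20.2 CPM in Clrn1-/- mice against 3.12, 2.12 and 6.85 CPM in wild-type. This likeness is a description over libraries that share genotype and depth.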

How the data were processed

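Organ of Corti RNA of 12 libraries (4 genotypes, 3 each) had been poly(A)-selected, prepared with a directional kit and read from both ends over 100 bases. The authors aligned reads with STAR to GRCm38.p6 with Gencode M24 and deposited raw counts per gene in 3 columns (unstranded and each strand). The column of the strand of the kit was used, with 95.2% to 95.6% of stranded counts; 13.5% to 15.8% of reads were unassigned and left out. Depth was 30008679 to 41049302 counts per library. Libraries of a genotype differed by 4.13 to 17.4 times counting variance per gene, so none was a duplicate.

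Genes passing filterByExpr (minimum count of 10) were fitted in R 4.3.3 with edgeR 4.0.16 (TMM, quasi-likelihood test, genotype alone, all 12 libraries), and p-values were adjusted by Benjamini-Hochberg over all 19052 genes. Calls needed an adjusted p of at most 0.05 and 1.5-fold, the fold minimum of the study. Log2 ratios were tested by exact permutation. The script was tested on simulated data. Exon lengths and coordinates came from Gencode M21 on the same build, and start-site windows from RefSeq. Named genes were the 8 genes, other MET and family genes called against wild-type, markers needed to state which moved, and the 3 genes nearest in profile to each of the 8 called against wild-type. Of the list of relatives, 1 gene is not reported here. The genes and lists were chosen with earlier results of these data known.

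Alternatives were limma-voom (limma 3.58.1), DESeq2 1.42.0, other scalings, other filters, the compared genotypes alone, unstranded counts, a replicate block, dropping the fold minimum, and leaving out each library in turn. No source says what a replicate number shared by genotypes means. Over 12453 genes, deviations of same-numbered libraries correlated above 0.1 in 7 of 18 pairs (range -0.279 to 0.306). Every pair did so only for wild-type and Clrn1-/- (0.291, 0.134 and 0.111), which does not establish that they were paired.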

Additional observations from a re-analysis of the deposited data

Results flagged for a closer look

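By the interaction test of edgeR, the difference of Cdh23 between Clrn1 genotypes varied with the Clrn2 genotype. The interaction was 0.59 on the log2 scale (edgeR adjusted p = 0.00142). The log2 difference was -0.74 between Clrn1-/- and wild-type mice and -0.15 between Clrn1-/-Clrn2-/- and Clrn2-/- mice. Only the former includes the separately bred wild-type, so breeding and genotype cannot be told apart in the interaction. The interaction sat at the fold minimum and ranged from 0.49 to 0.64 over the 21 alternatives. Its adjusted p stayed at or below 0.00616 in all of them. A cause was not tested.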

How the results depend on the processing

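Counts of the 8 genes called changed as follows. With DESeq2, 0 were called between Clrn1-/- and Clrn2-/- (Tmc2 at an adjusted p of 0.0506), 1 between Clrn1-/-Clrn2-/- and Clrn1-/- (Pcdh15) and 0 for the interaction, where Cdh23 kept its adjusted p but fell under the fold minimum. The interaction count was also 0 with DESeq2 size factors, library size alone and no filter on low counts. Without a fold minimum the counts were 5, 4 and 5 against wild-type in the single mutants and the double mutant, 3 between the single mutants, 6 and 2 for the double mutant against Clrn1-/- and Clrn2-/-, and 2 for the interaction, and those of the other 20 genes were 3, 4 and 9. In Clrn1-/-Clrn2-/- mice limma-voom, the compared genotypes alone and the replicate block each called 1 of the other genes (Ush1c). The replicate block changed no call of the 8 genes: 3, 1 and 2 were called against wild-type.

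Leaving out 1 library in turn gave 2 to 3 calls among the 8 genes between wild-type and Clrn1-/-, 1 for Clrn2-/- and 2 for the double mutant, 0 to 1 between the single mutants, 1 to 2 against Clrn1-/-, 0 to 1 against Clrn2-/- and 0 to 1 for the interaction. For the other genes it gave 0, 0 to 1 and 1 to 2. Pcdh15 passed the fold minimum between Clrn1-/-Clrn2-/- and Clrn2-/- without Clrn2-/- replicate 3 (0.63) or Clrn1-/-Clrn2-/- replicate 1 (0.60). Cdh23's interaction lost its call with unstranded counts (0.58) and without any 1 of 6 libraries (wild-type replicate 3, Clrn1-/- replicate 1, Clrn2-/- replicates 1 and 2, and Clrn1-/-Clrn2-/- replicates 2 and 3), at 0.49 to 0.57. Tmc2 lost its call between the single mutants without Clrn1-/- replicate 2 (1.75, edgeR adjusted p = 0.0517) and between the double mutant and Clrn1-/- without Clrn1-/-Clrn2-/- replicate 3 (-1.38, edgeR adjusted p = 0.0562).

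Differences near 0, none of them past the test, changed sign. With unstranded counts, Tmc2 between Clrn1-/-Clrn2-/- and Clrn2-/- was -0.46 and the interaction of Tomt was 0.080. The interaction of Tmc2, -1.96 and not called, was called with them (-2.45, edgeR adjusted p = 0.0311). With 1 library left out, the ranges were -0.22 to 0.80 and -0.058 to 0.95 for Tmc2 in Clrn2-/- and Clrn1-/-Clrn2-/- mice against wild-type, and -0.13 to 0.53 between them. They were -0.12 to 0.10, -0.17 to 0.048 and -0.11 to 0.014 for Lhfpl5 in the same 3 comparisons, and -0.081 to 0.020 for Cib2 in Clrn2-/- mice. Between Clrn1-/-Clrn2-/- and Clrn2-/- they were -0.072 to 0.099 for Tmie and -0.039 to 0.10 for Tomt, whose interaction ran from -0.14 to 0.029. The cause of these changes was not tested. Unstranded counts of Tomt numbered 35 to 65 per library.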
